A study of Schizosaccharomyces pombe with 2 samples.

Results

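The genes described here make the fermentation branch of fission yeast, *Schizosaccharomyces pombe*: 4 pyruvate decarboxylase genes, pdc101, pdc102, pdc201 and pdc202, and 2 alcohol dehydrogenase genes, adh1 and adh4. They were chosen by name, as the probes labelled SPAC1F8.07c (pdc101), SPAC186.09 (pdc102), SPAC3G9.11c (pdc201), SPAC13A11.06 (pdc202), adh1 and SPAC5H10.06c (adh4). These are 6 of 5006 gene probe names on the arrays, and all 6 passed the filter on dim probes. The symbols follow the RefSeq gene table of ASM294v3, which places 5 of the genes on chromosome I and adh1 on chromosome III.

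The study hybridised 2 spotted arrays, each with both of its cultures. One culture was a wild-type strain with the plasmid pDUAL-Ssn6, which expresses the corepressor subunit Ssn6, and the other a wild-type strain with the empty plasmid pDUAL-EMPTY. Both grew at 30 °C in minimal medium lacking uracil (MM-URA), which keeps the plasmids under selection, and were taken in logarithmic growth. Strain and plasmid are thus shared apart from the insert, the chromosomal ssn6 gene is present in both cultures, and the promoter on the plasmid is not given in the labels.

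Pyruvate decarboxylase takes the carboxyl group off pyruvate and leaves acetaldehyde, with thiamine diphosphate as its cofactor. Alcohol dehydrogenase reduces the acetaldehyde to ethanol and returns the NADH of glycolysis to NAD+, so that glycolysis can go on. Adh1 is the zinc-dependent enzyme of the cytosol that carries the main ethanol flux in fission yeast. Adh4 belongs to the iron-type family, and its gene is repressed by the zinc-responsive factor Loz1 when zinc is ample. Pyruvate that is not decarboxylated in the cytosol can enter mitochondria, where the pyruvate dehydrogenase complex makes acetyl-CoA.

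Values are B/A ratios on the log2 scale, channel B divided by channel A, after loess normalization, with the SD over the arrays (n = 2). The labels put the Ssn6 culture in Cy3 on array 1 and in Cy5 on array 2, while the file headers name the channels only A and B. The ssn6 probe had positive B/A ratios on each array (1.91 and 2.18), so channel B is likely the Ssn6 culture, and directions are given by channel. Each ssn6 spot of array 1 carried flag X in a channel, while those of array 2 carried flag C in both channels. With flag C spots only, ssn6 has no value on array 1, so the reading of that array rests on flagged spots. Across genes the arrays ran the same way (Pearson r = 0.807 over 4854 gene probes, a description across genes), so dye bias may not cancel in the means. The series' text speaks of independent RNA preparations and not of separate cultures, so the spread between these arrays may be technical. The p-values rest on that spread, which limma draws mostly from all probes and only partly from the gene's own values.

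Of the 6 genes, 5 passed an adjusted p of 0.05 in limma, 3 higher and 2 lower in channel B. Over all 4854 gene probes tested 28.3% passed, 11.6% higher and 16.7% lower. The 6 genes were chosen with earlier results of these data known, so their count is no test against that share. The pyruvate decarboxylase genes pdc101 and pdc102 and the alcohol dehydrogenase gene adh1 were higher in channel B. The pyruvate decarboxylase gene pdc201 and the alcohol dehydrogenase gene adh4 were lower, and pdc202 did not pass. With the authors' deposited values 0 of the 6 passed in limma (5 at an unadjusted p under 0.05), and with the sign of array 1 turned, as the labelled dye swap would ask, 0 of the 6 passed and 0 had an unadjusted p under 0.05. Each enzyme step, in the main setting, had a gene higher in channel B and another lower.

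The pdc101 probe was brighter in channel B on every spot. Its first spot of array 1 read 48674 in A and 275919 in B, and the second spot 583156 and 4043018. Array 2 gave 279417 and 223349 in A against 2305190 and 1960438 in B. Within each spot channel B was far above channel A, but the first spot of array 1 was so dim that its channel B value lay below channel A of its duplicate. Channel B was 5.67-fold and 6.93-fold brighter on the spots of array 1, and 8.25-fold and 8.78-fold brighter on those of array 2. After loess the log2 ratio was 1.91 on array 1 and 2.34 on array 2, with a mean of 2.13 ± 0.31 (limma, adjusted p = 6.7e-05). All 4 spots held saturated pixels. The mean was 1.76 when both signals were divided by the saturation factor before loess, as described below. That division leaves the ratio within a spot as it was and changes only the value that loess subtracts.

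The pdc102 gene, another pyruvate decarboxylase gene, was higher in channel B at a much lower spot signal. Its channel A read 31424 and 21669 on array 1 and 41815 and 41888 on array 2. Channel B read 73735 and 74736 on array 1 and 76821 and 93239 on array 2, above every channel A value of the same probe. The log2 ratio was 1.38 on array 1 and 0.79 on array 2, with a mean of 1.08 ± 0.42 (adjusted p = 0.00345). Channel A on array 1 lay near the 95th percentile of negative control spots in that channel (22129), with the second spot below it. The size of the array 1 ratio is thus uncertain. No spot of pdc102 held saturated pixels.

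The pdc201 gene ran the other way. Its channel A read 498419 and 481761 on array 1 and 614470 and 507533 on array 2, and channel B read 107234, 107094, 178346 and 157913 on the same spots. Channel A exceeded channel B on all 4 spots without overlap, by 4.65-fold and 4.5-fold on array 1 and by 3.45-fold and 3.21-fold on array 2. The log2 ratio was -2.50 on array 1 and -2.14 on array 2, with a mean of -2.32 ± 0.25 (adjusted p = 3.49e-05), which is 4.99-fold higher in channel A. It was rank 55 from the lowest, and none of its spots held saturated pixels.

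The pdc202 gene showed the smallest ratio of the 6. Only 1 of its spots on array 1 had a signal, 29701 in A and 30238 in B. On array 2 channel A read 34522 and 31355 and channel B 29656 and 21731. The channels were almost level on array 1, and channel A was slightly brighter on array 2. These signals lie close to the level below which probes were left out, the 95th percentile of negative control spots, which in channels A and B was 22129 and 21251 for array 1, then 17908 and 18211 for array 2. The log2 ratio was -0.11 on array 1 and -0.56 on array 2, with a mean of -0.34 ± 0.32, and did not pass (adjusted p = 0.186).

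For adh1, the gene of the main ethanol-forming enzyme, channel B was brighter on all 4 spots. Array 1 read 957135 and 965092 in channel A against 3853389 and 4071799 in channel B, that is 4.03-fold and 4.22-fold. Array 2 read 205164 and 1108802 in channel A against 594416 and 3037270 in channel B, that is 2.9-fold and 2.74-fold. The spots of array 2 differ widely in signal while their ratios are close. Loess reduced these ratios to 0.58 on array 1 and 0.71 on array 2, with a mean of 0.65 ± 0.10 (adjusted p = 0.0183). The mean was 1.54 with median centring in place of loess, and it did not pass when only spots with flag C in both channels were kept (0.46, adjusted p = 0.072).

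The adh4 gene was lower in channel B. Its only spot with a signal on array 1 read 461984 in A and 155825 in B. Array 2 gave 569810 and 422941 in A and 243620 and 235666 in B. Channel A was above channel B on all 3 measured spots, by 2.96-fold, 2.34-fold and 1.79-fold. The log2 ratio was -1.92 on array 1 and -1.47 on array 2, with a mean of -1.69 ± 0.32 (adjusted p = 0.000237). None of these spots held saturated pixels.

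**Figure D1:**
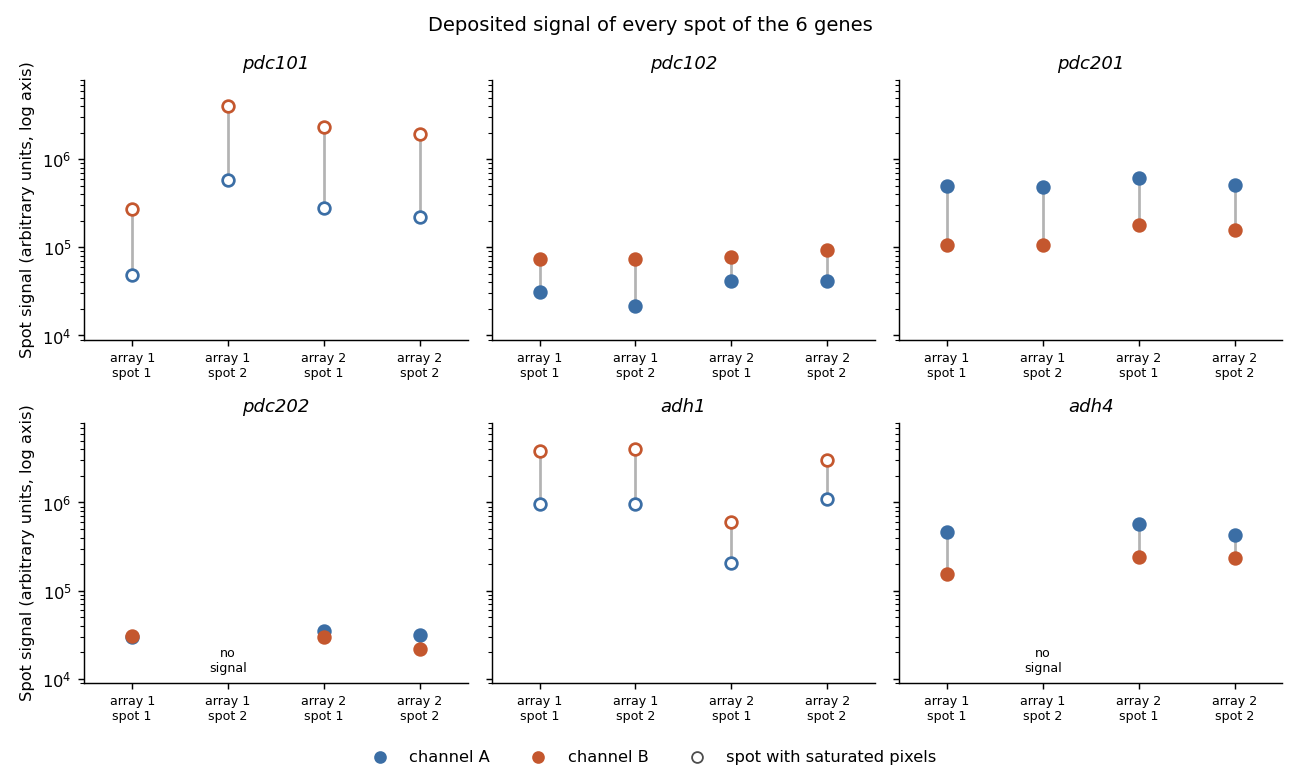
Deposited spot signals of the 6 genes in channel A (blue) and channel B (orange), in arbitrary units on a log axis, for each of 2 spots on each of 2 arrays; open points are spots with saturated pixels. Channel B lies above channel A on every spot of pdc101, pdc102 and adh1, and below it on every measured spot of pdc201 and adh4.

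In that plot of spot signals, only pdc101 and adh1 have open points. Every spot of pdc101 held saturated pixels, 93.1% and 4.65% of the pixels on array 1 and 33.7% and 44.7% on array 2. So did every spot of adh1, with 17.2% and 8.99% on array 1 and 86.3% and 32.9% on array 2. The other 4 genes had none, so saturation touches 2 of the 3 genes that were higher in channel B and neither of the lower ones. Over all gene spots with a signal, 1.59% held saturated pixels on array 1 and 2.32% on array 2. Without saturated spots pdc101 and adh1 have no value.

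The file headers do not define the saturation factor, and the spots show how it bears on the signals. Where duplicate spots of a probe had factors under 0.5 and over 0.85, the signal of the more saturated spot was lower in channel B, at a median of 0.267 times its duplicate on array 1 (17 probes) and 0.321 times on array 2 (11 probes). After division by the factor these medians were 1.17 and 1.003. In channel A they were 0.37 and 0.36 before division and 1.30 and 1.07 after it, so that array 1 was overcorrected. The signal per unsaturated pixel reached at most 62301 over both channels of both arrays. Read as a sum over the unsaturated pixels, which these values approach but do not match exactly, the deposited signal makes a strongly saturated spot look dim.

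**Figure D2:**
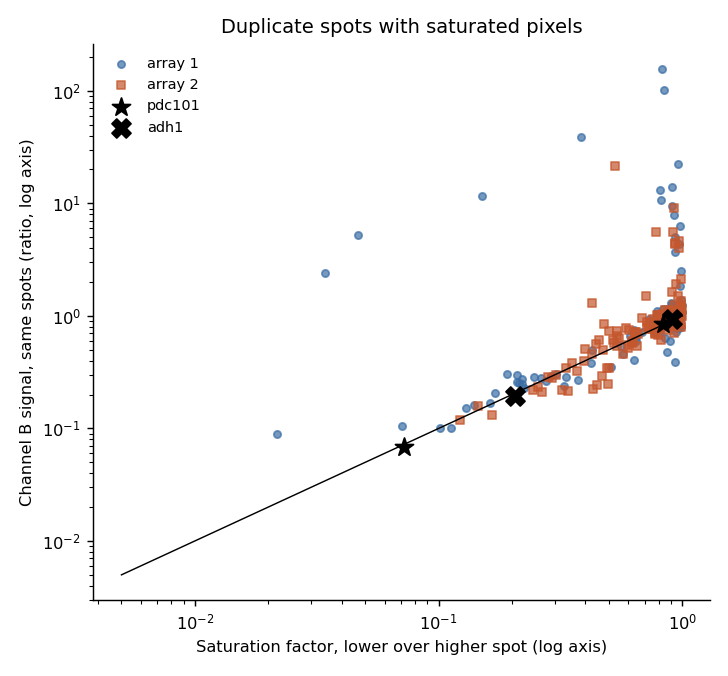
Each point is a gene probe with saturated pixels in at least 1 of its duplicate spots: the channel B signal of the more saturated spot over its duplicate, against the same quotient of their saturation factors, both without units on log axes, with the line of equality. Points at low factor quotients lie mostly along the line, those of pdc101 on array 1 and adh1 on array 2 among them, while some points lie far above it. At quotients below that of pdc101 on array 1 (0.072) this does not hold. There pip1 (0.089 at 0.0217), SPBC8D2.18c (2.43 at 0.0341) and thi3 (5.29 at 0.0465) lie well above the line, and tf2-8 (0.104 at 0.0706) lies nearer.

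For pdc101 and adh1 this reading brings the duplicates together. Divided by the factor, the pdc101 spots of array 1 came to 705420 and 611595 (A) and to 3998826 and 4240187 (B). The adh1 spots of array 2 came to 1492102 and 1653201 (A) and to 4323025 and 4528508 (B). Spots that had differed several-fold were then nearly level.

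Loess subtracts a value that depends on the brightness of the spot, so a spot that looks dim is corrected as a dim one. On array 1 the value subtracted was 0.15 for the strongly saturated pdc101 spot and 1.32 for its duplicate, which set the normalized spots 0.88 apart. The median difference between duplicates on that array was 0.19. On array 2 the values subtracted from the adh1 spots were 0.44 and 1.12, and the normalized spots were 0.76 apart against a median of 0.14. When both signals were divided by the factor before loess, an alternative chosen after seeing the data, the pdc101 ratio was 1.76 (adjusted p = 0.00112). The adh1 ratio was then 0.43 and did not pass (adjusted p = 0.0836). The other 4 genes kept their calls and directions in that setting.

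**Figure D3:**
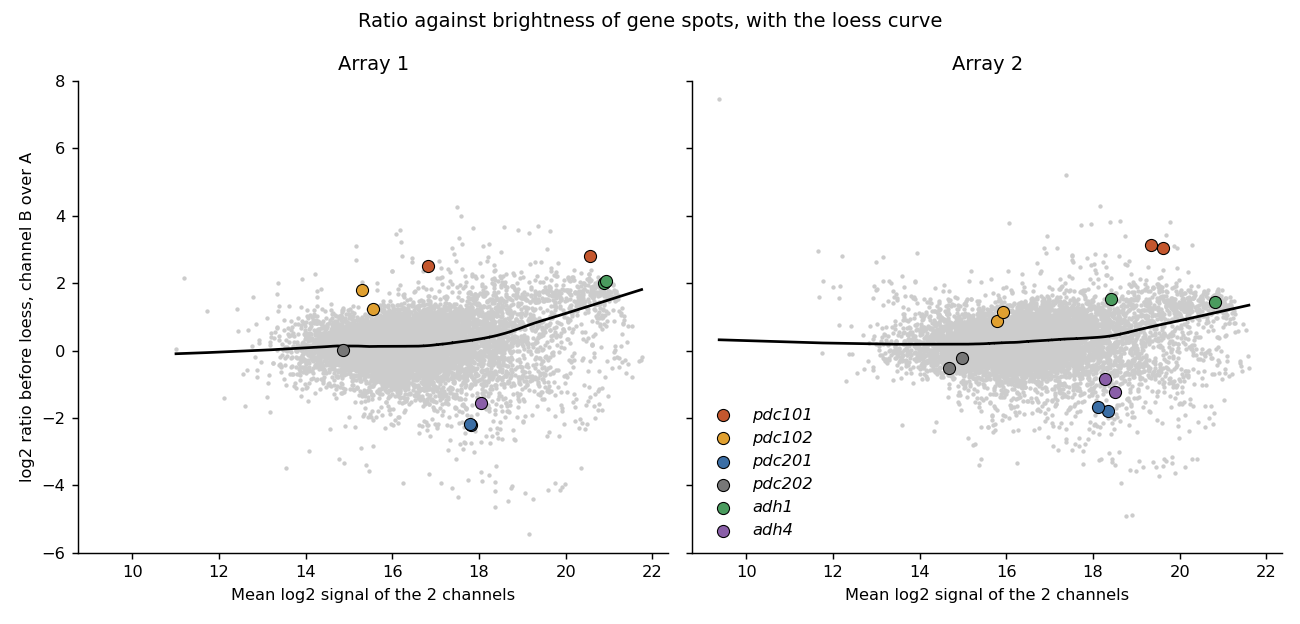
Log2 B/A ratio before normalization against the mean log2 signal of the channels, for all gene spots (grey) on each array, with the loess curve (black) and the spots of the 6 genes in colour. The curve rises with brightness, and the 4 adh1 spots lie 0.33 to 1.10 above it.

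The size of the adh1 ratio depends on that rise. Spots within 0.5 log2 units of the mean brightness of adh1 had a median unnormalized ratio of 1.41 on array 1 and 0.80 on array 2. The adh1 spots averaged 2.04 and 1.49, and 6.28% and 15.7% of the spots of like brightness lay above them. These brightnesses are the deposited ones, which the saturated spots lower, most of all the first adh1 spot of array 2. With signals divided by the factor the adh1 spots of array 2 lay 0.38 and 0.27 above the loess curve, and those of array 1 0.49 and 0.60. Whether the rise with brightness comes from the dyes or from the transcripts was not tested.

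**Figure D4:**
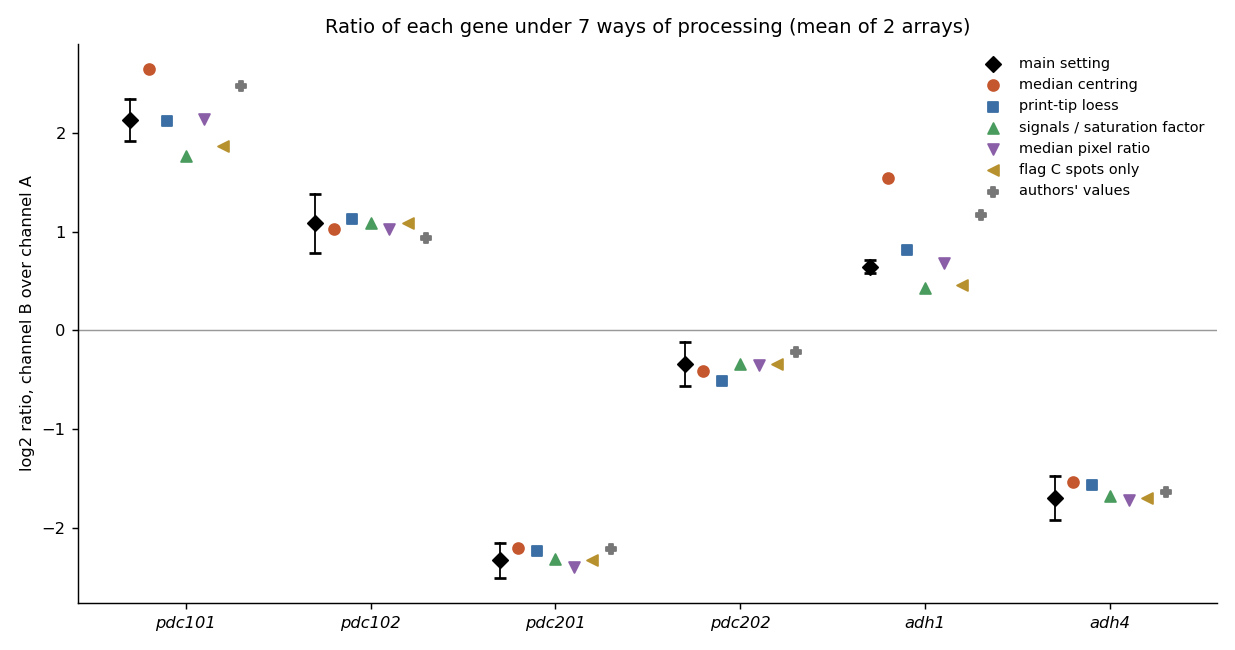
Mean log2 B/A ratio (n = 2 arrays) of each gene under 7 ways of processing; black bars join the values of the arrays in the main setting. The settings keep the order of signs, with pdc101, pdc102 and adh1 above 0 and pdc201, pdc202 and adh4 below, and spread most for pdc101 and adh1.

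The genes were compared with each other by the difference of their log2 ratios within each array, for all 15 pairs within and between the enzyme steps. The sign of the difference was the same on both arrays in 15 of 15 pairs. It was the same in 14 with print-tip loess, the median pixel ratio, the authors' deposited values or signals divided by the saturation factor. The pairs share genes and are not independent, and the share over all pairs of probes was not counted. The arrays ran the same way across all probes (Pearson r = 0.807), so the count is not read as a trait of these genes. The exact two-sided sign-flip permutation test over 2 arrays gives p = 0.5 for each pair, the smallest it can give, and 0.5 after adjustment. Between pdc101 and pdc201 the difference was 4.41 on array 1 and 4.49 on array 2 (mean 4.45 ± 0.06). It is the widest of the pairs. Since pdc101 is saturated on every spot, the spread between the arrays understates its error, and the difference ran from 4.07 with signals divided by the saturation factor to 4.83 with median centring.

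Within the pyruvate decarboxylase genes the ratios differed in size and sign. The ratio of pdc101 exceeded that of pdc102 by 0.53 on array 1 and 1.56 on array 2, on average 2.06-fold (log2 SD 0.73), in which the saturated pdc101 spots take part. The mean difference was 0.68 with signals divided by the saturation factor and 1.61 with median centring. The ratio of pdc201 minus that of pdc202 was -2.38 on array 1 and -1.58 on array 2, a mean of -1.98 ± 0.57. Between the alcohol dehydrogenase genes adh1 and adh4 the difference was 2.50 and 2.18 (mean 2.34 ± 0.22). Every adh1 spot held saturated pixels, and adh4 had only 1 spot with a signal on array 1. The mean difference of adh1 and adh4 was 2.11 with signals divided by the saturation factor and 3.07 with median centring. The pair with the smallest difference was pdc102 and adh1, 0.80 on array 1 and 0.07 on array 2, which is no more than the spread between the arrays. In the main setting the order of ratio was pdc101, pdc102, adh1, pdc202, adh4 and pdc201. With median centring adh1 (1.54) came before pdc102, as it did with the authors' deposited values (1.16 and 0.93). In the main setting pdc201 minus adh4, the last 2 in that order, was -0.58 and -0.67.

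How far probes of these genes share signal is not known from the files, since the probe sequences are not used here and pyruvate decarboxylase genes are related in sequence. The gene table lists at least 1 long noncoding RNA overlapping each of the 6 genes, adh1AS at adh1 among them. The strand of the probes is not given in the sources used here, so the signal of a gene and of an RNA antisense to it cannot be told apart.

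The steps around the branch were read from lists written with earlier results of these data known. Late glycolysis, which makes the NADH and the pyruvate, ran higher in channel B. Of 7 genes listed 5 probes were tested and 5 were higher, against 11.6% of all probes. Their median was 2.08 against 0.01 over all genes tested. They included the enolase probe eno1 (2.73 ± 0.95, adjusted p = 0.000209), the glyceraldehyde-3-phosphate dehydrogenase gene gpd3 (2.45 ± 0.96) and the phosphoglycerate mutase gene gpm1 (1.47). All spots of these 5 probes held saturated pixels, as those of pdc101 and adh1 did. Over all gene spots with saturated pixels the median log2 ratio before loess was 1.54 on array 1 and 1.15 on array 2. It was 0.18 and 0.27 for gene spots without them, so the share over all probes is no like background for these 5. With the signals divided by the saturation factor 4 of 5 passed, with a median of 1.17, eno1 at 1.94 and gpm1 at 0.73. The probe that did not pass there was pyk1, the pyruvate kinase gene of the step that makes pyruvate. It was at 0.45 (limma, adjusted p = 0.296), against 1.17 ± 0.32 in the main setting.

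The mitochondrial use of pyruvate ran lower in channel B. Lower were 7 of 8 genes tested, against 16.7% of all probes, at a list median of -1.53, and none of their spots held saturated pixels. The mitochondrial pyruvate carrier genes mpc1 (-2.06 ± 0.54, adjusted p = 0.000182) and mpc2 (-1.51 ± 0.04) were lower. So were the pyruvate dehydrogenase complex genes lat1 (-1.88 ± 0.12), encoding the acetyltransferase, and pdx1 (-1.72 ± 0.05), encoding the component that binds the third enzyme. The dihydrolipoamide dehydrogenase gene dld1 was at -1.55 ± 0.31, and pda1 and pdb1, the genes of the decarboxylating subunits, were at -1.40 ± 0.23 and -0.80 ± 0.32. The pyruvate dehydrogenase kinase gene pkp1 missed the threshold (0.08, adjusted p = 0.743). With median centring 5 of 8 were lower at a list median of -1.01, where 17.4% of all probes passed as lower and 33.2% in either direction. In that setting lat1 had -1.18 and dld1 -0.84, and pda1 (-0.47, adjusted p = 0.0517) and pdb1 (-0.18, adjusted p = 0.454) missed the threshold.

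Genes of the steps between acetaldehyde, acetate and acetyl-CoA went both ways. Higher were 2 of 6 tested and lower 3, against 11.6% and 16.7% of all probes, and the list's median was -0.55. The aldehyde dehydrogenase gene atd1 was lowest (-2.36 ± 0.24, adjusted p = 3.06e-05), with saturated pixels in 2 of its 3 spots and -1.44 with median centring. Of the other genes listed for acetaldehyde to acetate, atd2 was lower (-0.62 ± 0.25), SPBC21C3.15c higher (0.70 ± 0.22) and atd3 did not pass (-0.47). The acetyl-CoA hydrolase gene ach1 was lower too (-1.28 ± 0.40), and the acetyl-CoA synthetase gene acs1 was higher (1.25 ± 0.10).

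In the list of other alcohol and glycerol dehydrogenase genes, members were lower or did not pass. Lower were 3 of 7 tested, against 16.7% of all probes, and the other 4 missed the threshold. The list's median, -0.22, is the value of etr1, an enoyl reductase gene that is neither kind of dehydrogenase. The glycerol dehydrogenase gene gld1 was at -2.46 ± 0.05 (adjusted p = 2.04e-05). The glycerol-3-phosphate dehydrogenase gene gpd2 was at -1.09 ± 0.26. The probe gpd1 was at -1.35 ± 0.41, a name that is also an older name of the glycolytic gene tdh1, so its gene is uncertain. With median centring gpd1 had -0.73 and gpd2 -0.68. The genes fmd1 (0.13) and fmd2 (-0.13), named as formaldehyde dehydrogenases, did not pass.

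Among 6 zinc genes, read because zinc controls adh4, 1 was higher and 1 lower (2 lower with median centring), a share near the 28.3% over all probes. The list's median was -0.35, and -0.22 with median centring. The zinc transporter gene zrt1, repressed by Loz1 like adh4, was lower at -1.56 ± 0.07 (adjusted p = 0.000217), and at -0.85 with median centring. The metallothionein gene zym1 was higher at 0.93 ± 0.06. The loz1 gene itself had -0.36 and did not pass (adjusted p = 0.126). Among 7 genes of thiamine diphosphate enzymes and the kinase that makes this cofactor, 1 was higher and 3 lower (1 lower with median centring). Over all probes 11.6% were higher and 16.7% lower, and with median centring 33.2% passed in either direction. The list's median was -0.52, or -0.21 with median centring. The acetolactate synthase gene ilv1 was at -1.84 ± 0.46 and pda1 is given above. The thiamine diphosphokinase gene tnr3 was higher, at 0.80 on both arrays.

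**Figure D5:**
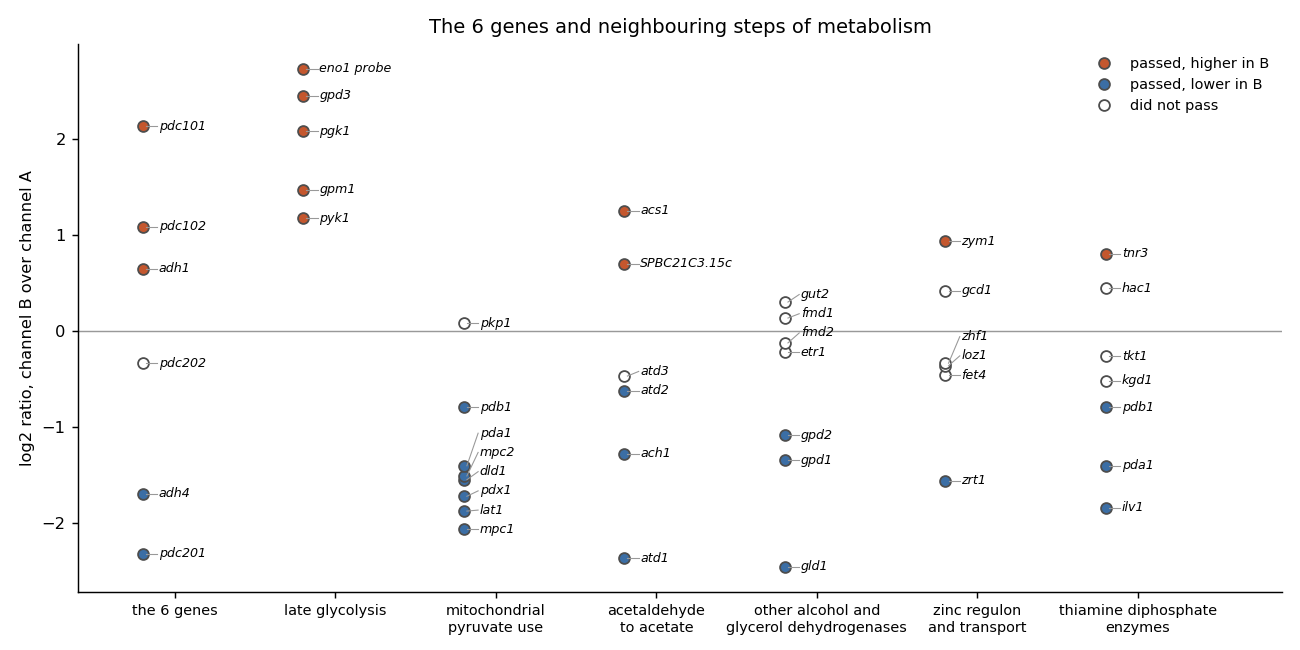
Mean log2 B/A ratio (n = 2 arrays) of the 6 genes and of the 6 gene lists around them, coloured by the call of limma; pda1 and pdb1 stand in 2 lists. All 5 late glycolysis probes lie above 0, and 7 of 8 mitochondrial pyruvate genes lie below it.

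Genes next to the 6 on the chromosome were read as the 5 protein-coding genes on either side, against the 11.6% higher and 16.7% lower over all probes. The pdc102 gene, higher in channel B, lies among genes that were mostly lower: 6 of 8 neighbours tested were lower and 1 higher, with a median of -1.31. The lower ones were SPAC186.06 (-3.06 ± 0.24), ftm4 (-2.73), ftm3 (-1.69), gdt1 (-1.43), SPAC750.02c (-1.18) and SPAC186.08c (-0.64). The higher one was SPAC750.01, next to pdc102 (2.03 ± 0.36). This is a subtelomeric stretch with duplicated gene families, whose probes may share signal with related copies.

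Around pdc101, of 8 tested 2 were higher and 3 lower. The higher ones were hhy1 (1.09) and the siderophore transporter gene str3, whose channel A signal was below the background level, so that no ratio is given. The lower ones were isp3 (-1.30), SPAC11D3.02c (-0.85) and SPAC11D3.03c (-0.63). Around adh4, of 9 tested 2 were higher and 3 lower. The higher ones were dgc1, a D-glutamate cyclase gene (3.75 ± 0.17), and SPAC5H10.05c (1.12), whose value was 0.35 on array 1 and 1.88 on array 2. The lower ones were hsp3102 (-0.88), gmh1 (-0.58) and SPAC5H10.10 (-0.57, and -0.48 with an adjusted p of 0.0605 with median centring). The gene table places 24 protein-coding genes between pdc101 and adh4.

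Around pdc202, of 8 tested 1 was higher, img2 (0.54, and 0.47 with an adjusted p of 0.053 with median centring), and 4 were lower, ysp2 (-1.31), ubp8 (-0.65), SPAC3H8.04 (-0.58) and aur1 (-0.58). Around pdc201, of 9 tested only the translation initiation factor gene tif211 passed (0.72). Around adh1, of 7 tested only coq3, a ubiquinone synthesis gene, passed (0.67).

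The probes nearest to each gene in ratio were found by Euclidean distance over the 2 arrays, which is a likeness over 2 points only. Nearest to pdc101 were the glycine cleavage gene gcv3 (distance 0.10), SPAC11D3.18c (0.14) and SPAC750.01 (0.16), the last also a neighbour of pdc102. Nearest to pdc102 were cpc2 (0.087), fkh1 (0.19) and hsp10 (0.19). Nearest to pdc201 were ppr8 (0.037), SPBC18E5.14 (0.037) and atd1 (0.063), the aldehyde dehydrogenase gene described above. With median centring atd1 was at -1.44 and pdc201 at -2.19, so their likeness belongs to the main setting. Nearest to adh4 were SPCC757.13 (0.065), lys9 of lysine synthesis (0.071) and mdm34 (0.072). For adh1 they were rps1002 (0.013), rhp23 (0.021) and rdl2 (0.027).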

How the data were processed

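Each array's deposited scanner table lists 11520 spots with, per the file headers, an intensity per channel already corrected for background, the background intensity, the linear ratio of channel A over channel B, the pixel area, flags and a saturation factor given as a fraction. The authors' deposited table holds log10 values, lowess-normalized per array per the labels (the series' design text). Sources used here name neither the scanner software nor the probe sequences.

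Signals plus an offset of 50 were turned into log2 ratios and normalized by loess within each array (span 0.3, control spots at weight 0), and spots of a probe were averaged. A probe was left out if both channels of an array lay below the 95th percentile of 822 negative control spots (152 probes). Of 5006 probe names 4790 matched the gene table. Ratios were tested against 0 with limma 3.58.1 in R 4.3.3, two-sided, with Benjamini-Hochberg adjustment over 4854 probes. Each probe has 1 residual degree of freedom, beside 7.60 prior ones. Scripts were tested on simulated data. Of gene spots, 9803 and 9996 had a signal, and the number of arrays limits the precision.

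The design had assumed other symbols for the 4 pyruvate decarboxylase IDs and is read here by ID, with the table's symbols. The members and lists were chosen with earlier results of these data known. Text names all members, the 3 genes of each list past the adjusted p that rank highest by the smaller array ratio, neighbours past it and the 3 nearest probes of each member past it; further list genes were named after their values were seen.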

Additional observations from a re-analysis of the deposited data

How the results depend on the processing

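With median centring, print-tip loess, normexp, no offset, no dim filter or the median pixel ratio, all 6 genes kept direction and side of the threshold. With flag C spots only adh1 did not pass (0.46), nor with signals divided by the saturation factor (0.43). Without saturated spots 3 of 4 measured genes passed, and 6 of 6 pairs had 1 sign; the counts fell because pdc101 and adh1 have no value there. The authors' deposited values hold 1 usable spot per probe and array; with them 0 probes and 0 of the 6 passed in limma (1784 probes, against 2022, and 5 of the 6 had an unadjusted p under 0.05), with pdc101 at 2.47, pdc102 0.93, pdc201 -2.21, adh1 1.16 and adh4 -1.63, and adjusted p of 0.0743 to 0.0914; the cause was not tested. With the sign of array 1 turned, as a literal dye swap would ask, 0 probes and 0 of the 6 passed (6 and 0 at an unadjusted p under 0.05), 0 of 15 pairs kept 1 sign, and values were 0.22 for pdc101, -0.30 for pdc102, 0.18 for pdc201, 0.068 for adh1 and 0.22 for adh4. The pdc201 and pdc202 difference was then 0.40 and that of adh1 and adh4 -0.16. Single arrays, values with no test, gave 1.91 to 2.34 for pdc101, 0.79 to 1.38 for pdc102, -2.50 to -2.14 for pdc201, -0.56 to -0.11 for pdc202, 0.58 to 0.71 for adh1 and -1.92 to -1.47 for adh4. Over all probes, 40.8% of calls were higher in channel B, and 47.7% with median centring. No paired analysis was possible because each ratio already sets the cultures of an array against each other, so the test of ratios against 0 is paired by array and a single group is left with nothing more to block.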

Other observations

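A further probe, SPBC1773.06c, carries the symbol adh8 in the gene table and was read after its values were seen. Its spots read 439046 and 450085 in channel A and 770988 and 776572 in channel B on array 1, so that channel B was brighter. On array 2 they read 760292 and 683917 in channel A and 434985 and 438147 in channel B, so that channel A was brighter. The log2 ratio after loess was 0.04 on array 1 and -1.36 on array 2, with a mean of -0.66 ± 0.98, and did not pass in limma (adjusted p = 0.116). The duplicate spots lay close together on each array, and the arrays disagreed, unlike those of the 6 genes.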
